A study of Mus musculus with 6 samples.

Results

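Keratan sulfate is a sulfated glycosaminoglycan whose chain is a repeat of galactose and N-acetylglucosamine, the same disaccharide, lactosamine, that extends many N-glycans and O-glycans. The chain grows as N-acetylglucosaminyltransferases and galactosyltransferases act in turn, and Golgi sulfotransferases add sulfate to carbon 6 of either sugar, with PAPS as the sulfate donor. Heavily sulfated keratan sulfate is best known from cornea and cartilage, while sulfated lactosamine capped with sialic acid and fucose is found on the vessels through which lymphocytes enter lymph nodes. Liver carries lactosamine mainly as the outer arms of N-glycans on plasma and membrane proteins.

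The genes described here are 7 enzymes of these chains, taken by name out of 909 genes that could be named on the array: the chain-extending enzymes B3gnt2, B3gnt7 and B4galt4, the galactose sulfotransferase Chst1, and the N-acetylglucosamine sulfotransferases Chst2, Chst4 and Chst5. All 7 were measured, each by 1 of the 1246 probe sets. Liver RNA from 3 diabetic and 3 wildtype male mice was hybridised to 1 Affymetrix array per sample, and the study asked whether enzymes of glycosaminoglycan synthesis are less expressed in the diabetic liver. The series title calls the diabetes insulin-deficient. The labels name no strain, age or way in which diabetes came about, nor do they state that each array came from a separate animal, so the p-values measure the spread between these samples.

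Values are the authors' log2 expression values from RMA, and differences are diabetic minus wildtype on that scale. The 6 array medians lay between 4.93 and 5.06. All 10 hepatocyte markers were above the median level of all probe sets, and 5 were higher and 5 lower in diabetic liver. Their median difference of 0.007 covers differences from -0.61 to 2.74. At a limma adjusted p under 0.05, 1 of the 10 was higher in diabetic liver, beside 0.321% of all probe sets. An unadjusted limma p under 0.05 was found for 3 of the 10, beside 2.97% of all probe sets. No detection call was used, so a value under the median may be little more than background. On diabetic 3, 21 probe sets, and on wildtype 2, 40 probe sets lay over 0.5 above or below every other array, against 1 to 11 on the rest. The RNA came from whole liver, where fewer cells of a type and less RNA per cell cannot be told apart.

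Of the 7 enzymes, 0 differed between diabetic and wildtype liver by the limma test (adjusted p from 0.942 to 0.990 over all 1246 probe sets), where 0.321% of all probe sets passed. The lactosamine-extending enzyme B3gnt2 was the brightest by far, with 7.66 ± 0.33 on the diabetic and 7.50 ± 0.09 on the wildtype arrays (SD, n = 3 each), a difference of 0.16. The other 6 genes had means below the median level of all probe sets. The differences of the 7 ran from -0.16 for Chst1 to 0.16 for B3gnt2, which as folds is 0.897 to 1.11. Their median was -0.022, with 2 genes higher and 5 lower in diabetic liver, beside a median of 0.002 over all probe sets. In size their median difference was 0.091, and that of all probe sets was 0.087.

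Sequence upstream of the brightest and of the dimmest of the 7 genes is shown first, since these mark the ends of their range of levels. Both are the 250 bases before a transcript start in RefSeq, build GRCm38.p6, written along the strand of the gene. Capitals mark 2 motifs searched on both strands, the GC box GGGCGG bound by Sp1-type factors (CCGCCC on the other strand) and the CCAAT box (ATTGG on the other strand). The TATA box TATAAA and the E-box CACGTG were searched too and are in neither. The first sequence is chr11:22859736-22859985 on the minus strand, and it lies inside the annotated span of B3gnt2, which reaches beyond this start. The second is chr16:38742009-38742258 on the plus strand, of which the last 39 bases, with the GC box, lie inside the annotated span of B4galt4.
B3gnt2: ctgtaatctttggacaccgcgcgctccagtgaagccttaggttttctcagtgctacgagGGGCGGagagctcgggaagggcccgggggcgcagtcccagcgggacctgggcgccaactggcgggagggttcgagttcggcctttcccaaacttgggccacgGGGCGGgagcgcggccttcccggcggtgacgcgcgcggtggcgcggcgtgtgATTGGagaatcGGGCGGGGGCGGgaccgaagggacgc
B4galt4: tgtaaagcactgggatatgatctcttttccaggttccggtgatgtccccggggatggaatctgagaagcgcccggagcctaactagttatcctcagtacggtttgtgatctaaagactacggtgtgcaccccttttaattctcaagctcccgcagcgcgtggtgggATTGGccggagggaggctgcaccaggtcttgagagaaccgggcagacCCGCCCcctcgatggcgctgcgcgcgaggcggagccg

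The B3gnt2 stretch held 31 CpG dinucleotides, 4 GC boxes and 1 CCAAT box, and the B4galt4 stretch held 19, 1 and 1. Among 27025 RefSeq promoters of the same length, 32.9% held a GC box and 34.5% a CCAAT box, and the median CpG count was 6. The GC box was present in 5 of the 7 genes and absent from Chst1 and Chst4, the 2 with the fewest CpG dinucleotides (1 and 5). Like that of B3gnt2, the Chst1 stretch lies inside the annotated span of its gene for all 250 bases, and 67 bases of the Chst4 stretch do. The TATA box was in 0 of 7 and 13.0% of all promoters, and the E-box in B3gnt7 alone and 6.05% of all promoters. The Chst2 stretch had 27 CpG. A match is a description of the letters in this window.

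B3gnt2 extends lactosamine chains by adding N-acetylglucosamine to galactose and is regarded as the main enzyme for this step on mouse N-glycans. The gene lies at chr11:22834739-22860336. It measured 7.38, 7.56 and 8.02 on diabetic arrays 1, 2 and 3, against 7.41, 7.50 and 7.59 on wildtype arrays 1, 2 and 3. Diabetic 3 was the highest array and diabetic 1 the lowest, so the wildtype values lay inside the diabetic range. B3gnt2 stood above the array median on 6 of 6 arrays and above 80.8% of all probe sets by mean. The difference of 0.16 had an SE of 0.168 and a 95% confidence interval of -0.25 to 0.56 (limma adjusted p = 0.942), and an exact two-sided permutation test gave p = 0.7, where 3 arrays against 3 allow 0.1 at the smallest. Without diabetic 3 the difference was -0.025, so its sign rested on that array. Its probe set carries the suffix that marks probes shared by several transcripts.

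Of 10 macrophage markers 7 were measured, 5 of them above the median level, and 5 of the 7 were also highest on diabetic 3. The exceptions were Cd74, highest on wildtype 3, and Clec4f, highest on diabetic 2. Their mean over the 7 was 6.32 on diabetic 3 and 5.56 and 5.71 on diabetic 1 and 2, against 5.70, 5.73 and 6.10 on wildtype 1, 2 and 3. Csf1r, the receptor for the macrophage growth factor CSF1, measured 7.50 on diabetic 3 and 6.23 to 6.85 on the other 5 arrays. The mean of the 10 hepatocyte markers was highest on diabetic 3 as well, at 10.53 against 9.7 to 10.42 on the other arrays. Of these 10, 4 were highest on diabetic 3 and 4 on wildtype 2. Igfbp1 and Angptl4 had the widest ranges over the 6 arrays, 6.26 to 11.52 and 8.72 to 10.59, and both were highest on diabetic 3. Asgr1 and Asgr2 were highest on wildtype 2, at 12.46 and 9.89, against 12.32 and 9.35 on diabetic 3. The means of the endothelial and of the stellate cell and fibroblast markers were highest on wildtype 3, at 5.89 and 5.43, against 5.85 and 5.13 on diabetic 3. The mean of the lymphocyte markers and the 1 measured cholangiocyte marker were highest on diabetic 2, at 3.79 and 5.30, against 3.78 and 5.20 on diabetic 3. The part of any set of markers in the B3gnt2 values was not tested.

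B3gnt7, which extends keratan sulfate chains in human cells together with B4GALT4, lies at chr1:86303221-86307305. It measured 4.79, 4.90 and 4.82 on diabetic 1, 2 and 3, against 4.78, 4.92 and 4.87 on wildtype 1, 2 and 3. These 6 values span 0.141, and in both groups array 1 was the lowest and array 2 the highest. The difference was -0.02 (SE 0.078, 95% confidence interval -0.20 to 0.17). The pooled within-group SD of B3gnt7, 0.064, was smaller than that of all but 9.6% of probe sets, and the level lay just under the array median on every array.

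B4galt4 adds galactose to N-acetylglucosamine, and its human counterpart prefers the sulfated sugar. The gene, at chr16:38742220-38769054, had the lowest level of the 7. It measured 3.23, 3.58 and 3.62 on diabetic 1, 2 and 3, against 3.34, 3.43 and 3.38 on wildtype 1, 2 and 3. Diabetic 1 lay below all wildtype arrays and diabetic 2 and 3 above them. The difference was 0.09 (SE 0.121, 95% confidence interval -0.20 to 0.38), and B4galt4 was the only one of the 7 whose difference kept its sign whichever array was left out (0.019 to 0.216). By mean it stood above 17.1% of probe sets, a level at which background can hide a difference.

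Chst1, the keratan sulfate galactose sulfotransferase, lies at chr2:92599632-92615252. It measured 4.75, 4.83 and 4.85 on diabetic 1, 2 and 3, against 4.73, 5.30 and 4.87 on wildtype 1, 2 and 3. Wildtype 2 was the only array on which Chst1 exceeded the array median, and the other 5 values lay within 4.73 to 4.87. The group means were 4.81 ± 0.05 on the diabetic and 4.97 ± 0.30 on the wildtype arrays (SD, n = 3 each), and the difference was -0.16 (SE 0.152, 95% confidence interval -0.52 to 0.21, limma adjusted p = 0.942). Without wildtype 2 it was 0.008. Wildtype 2, which raised the wildtype mean of Chst1, was also the array with the most probe sets apart from the rest. Whether these are linked was not tested.

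**Figure D1:**
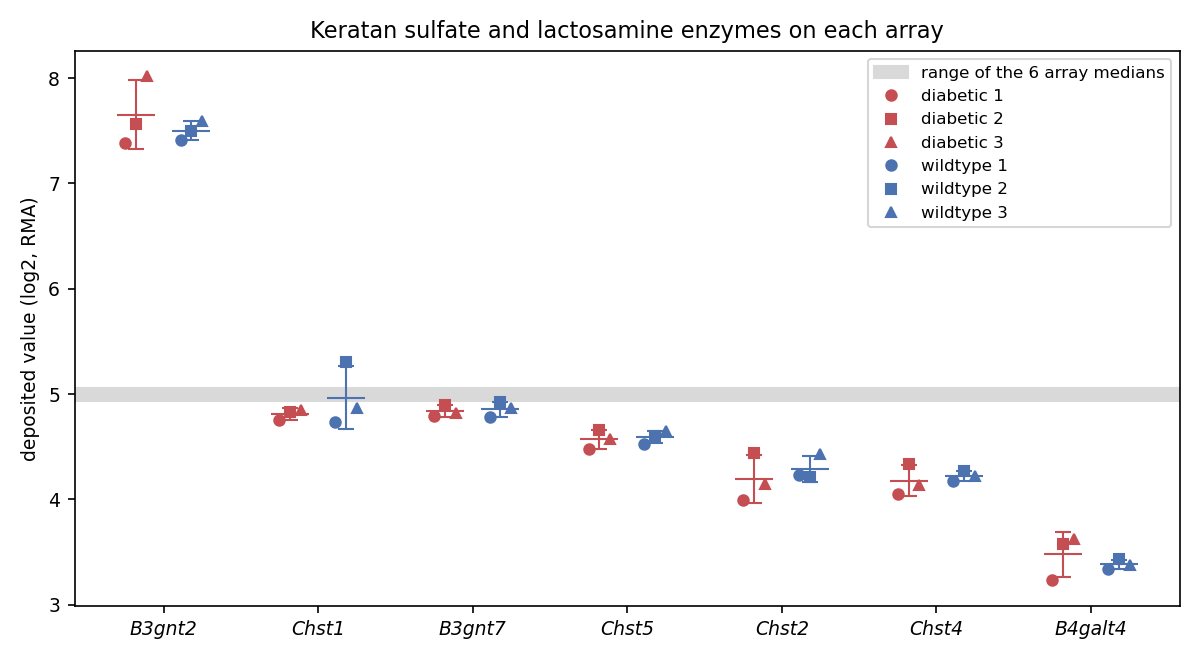
Deposited log2 values (vertical axis) of the 7 enzymes on each array, with diabetic arrays in red left of wildtype arrays in blue, and marker shapes for replicates 1 to 3. Horizontal bars are group means with SD, and the grey band is the range of the 6 array medians, 4.93 to 5.06. B3gnt2 lies above the band on all arrays, and the groups overlap for every gene.

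The N-acetylglucosamine sulfotransferases were below the array median on every array. Chst2, which is expressed in many tissues, lies at chr9:95400926-95407270. It measured 3.99, 4.44 and 4.15 on diabetic 1, 2 and 3, against 4.23, 4.21 and 4.43 on wildtype 1, 2 and 3. The diabetic arrays held both the lowest and the highest value. The difference was -0.10 (SE 0.135, 95% confidence interval -0.42 to 0.23), and 0.004 without diabetic 1.

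Chst4, known in mouse from the high endothelial venules of lymph nodes, lies at chr8:110029075-110039401. It measured 4.05, 4.34 and 4.14 on diabetic 1, 2 and 3, against 4.17, 4.27 and 4.22 on wildtype 1, 2 and 3, with all wildtype values inside the diabetic range. The difference was -0.05 (SE 0.098, 95% confidence interval -0.28 to 0.19). The Chst4 probe set has the same shared-transcript suffix as that of B3gnt2.

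Chst5, the sulfotransferase of corneal keratan sulfate in mouse, lies on the same chromosome at chr8:111889135-111910199. It measured 4.48, 4.66 and 4.57 on diabetic 1, 2 and 3, against 4.53, 4.60 and 4.65 on wildtype 1, 2 and 3. Here too diabetic 1 was the lowest and diabetic 2 the highest array. The difference was -0.02 (SE 0.082, 95% confidence interval -0.22 to 0.18).

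The diabetic and wildtype arrays overlapped for 7 of 7 genes, beside 7.87% of all probe sets that did not overlap. At an unadjusted p under 0.05 limma gave 0 of 7, where 2.97% of all probe sets passed. The confidence intervals of all 7 excluded a difference of 1 on the log2 scale in either direction. A fall of 0.5 lay outside the interval of 6 genes, Chst1 being the exception, and a rise of 0.5 outside that of 6, B3gnt2 being the exception. For the 6 dim genes such an interval bounds the deposited value and not the amount of transcript.

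**Figure D2:**
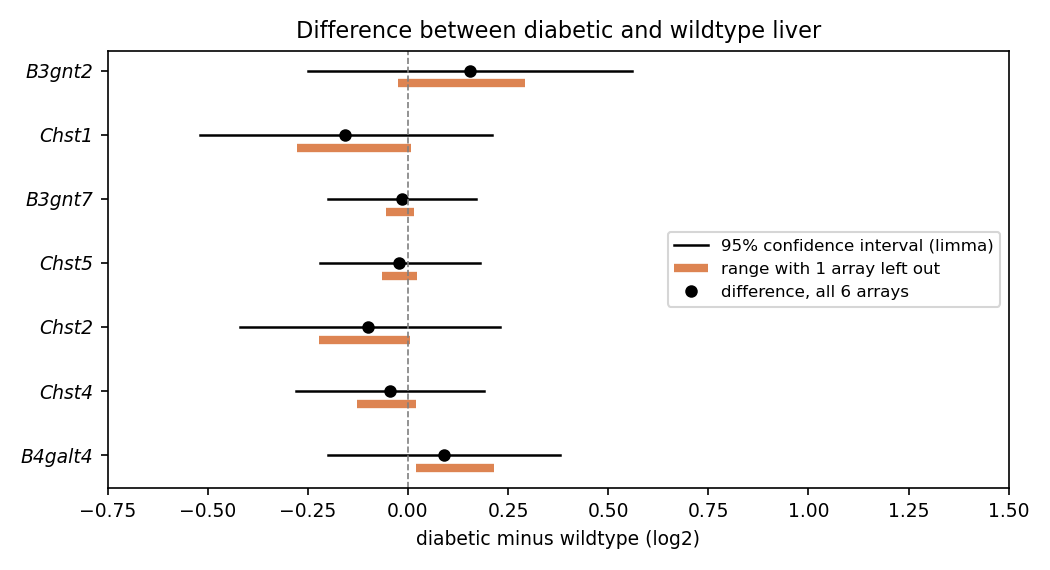
Diabetic minus wildtype difference on the log2 scale (horizontal axis) for each enzyme, ordered by level from top to bottom. Black points are the differences over all 6 arrays with their 95% confidence intervals, all of which include 0, and orange bars are the ranges when 1 array at a time is left out. The orange bar reaches both sides of 0 for 6 genes, and for B4galt4 it runs from 0.019 to 0.216.

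Taken by replicate number, the differences of the 3 diabetic and wildtype pairs did not share a sign for any of the 7 genes. For B3gnt2 they were -0.03, 0.07 and 0.43 for numbers 1, 2 and 3. For Chst1 they were 0.03, -0.47 and -0.03, so a single pair carried the mean difference in both genes. For Chst2 they were -0.24, 0.23 and -0.28, and for B4galt4 -0.12, 0.15 and 0.24. The remaining genes had pair differences between -0.12 and 0.07.

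Across arrays, all 7 genes were below their own mean on diabetic 1 and again on wildtype 1. Diabetic 1 was the lowest array for 5 genes and wildtype 1 for the other 2, Chst1 and B3gnt7. The median deviation of the 7 genes was -0.151 on diabetic 1 and -0.069 on wildtype 1. Among the 623 probe sets below the median level it was -0.030 and -0.022 on the same arrays, and 0.017 at the highest on any array. The medians of all probe sets on diabetic 1 and wildtype 1, 4.948 and 4.931, were also the lowest, against 4.999 to 5.059 on the other arrays. The highest array was diabetic 2 for Chst2, Chst4 and Chst5, diabetic 3 for B3gnt2 and B4galt4, and wildtype 2 for Chst1 and B3gnt7.

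In order of level the 7 genes ran B3gnt2, Chst1, B3gnt7, Chst5, Chst2, Chst4 and B4galt4, with means over 6 arrays of 7.58, 4.89, 4.85, 4.58, 4.24, 4.20 and 3.43. The gap of 2.69 below B3gnt2 was larger than the spread of either neighbour (largest SD 0.231) and held on 6 of 6 arrays. Chst1 and B3gnt7 were 0.04 apart, less than their spread, and so were Chst2 and Chst4. Probe sets differ in how well they bind, so this is an order of deposited values and not of transcript amounts.

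The patterns of the 2 brightest genes over the 6 arrays were set against those of the 908 other named genes, by the root mean square difference after each gene was centred on its own mean. The nearest to B3gnt2 was Lgals3, a galectin that binds lactosamine, at 0.048, followed by Cd33, a sialic acid-binding receptor of myeloid cells, at 0.098 and the growth factor gene Fgf4 at 0.099. Cd33 had a mean of 3.23 over the 6 arrays, below the 3.43 of B4galt4, a level that may be little more than background. Lgals3 measured 5.37, 5.56 and 6.05 on diabetic 1, 2 and 3, against 5.47, 5.44 and 5.68 on wildtype 1, 2 and 3. It is also on the list of macrophage markers. The mean of the other 6 measured macrophage markers was highest on diabetic 3, at 6.36 against 5.59 to 6.17. So was that of the hepatocyte markers, where Igfbp1 and Angptl4 had the widest ranges. The endothelial, stellate cell and fibroblast, lymphocyte and cholangiocyte markers had their highest levels on other arrays, as given above. The part of cell types in this likeness was not tested. The nearest to Chst1 were Gmds, an enzyme of GDP-fucose synthesis, at 0.047, the mucin gene Muc13 at 0.061 and Cmah, which makes N-glycolylneuraminic acid, at 0.075. Gmds measured 4.50, 4.58 and 4.59 on diabetic 1, 2 and 3, against 4.59, 5.04 and 4.70 on wildtype 1, 2 and 3. These are the nearest of 908 genes over only 6 arrays.

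**Figure D3:**
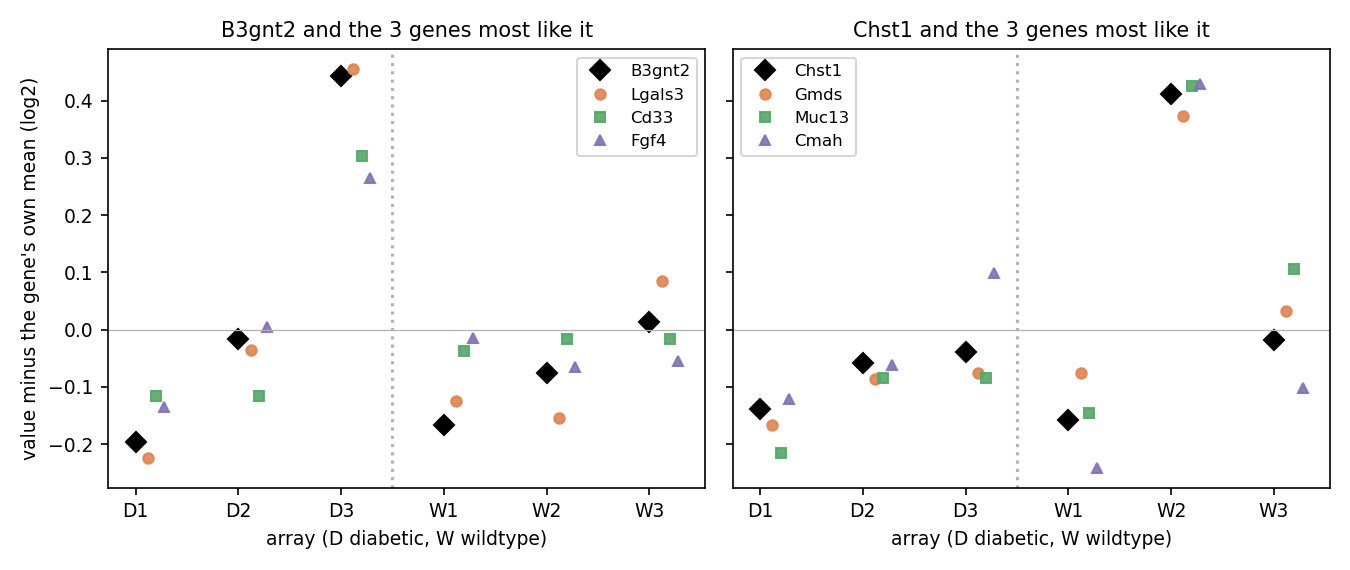
Value minus the gene's own mean (vertical axis, log2) on each array (horizontal axis, diabetic D1 to D3 left of wildtype W1 to W3) for B3gnt2 and Chst1 (black diamonds) and the 3 genes most like each. B3gnt2 and its nearest genes stand highest on diabetic 3, and Chst1 and its nearest genes on wildtype 2; the genes were chosen for this likeness.

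The other genes of the pathway were grouped in 8 lists by role, 66 of their 84 genes being measured, with 35 higher and 31 lower means in diabetic liver and a median difference of 0.032, beside 0.003 over the 909 named genes. The one gene past the limma threshold was Papss2, with a higher mean in diabetic liver. Papss2 makes the sulfate donor PAPS that all 4 sulfotransferases above consume. It measured 10.61, 10.52 and 10.44 on diabetic 1, 2 and 3, against 9.51, 9.68 and 9.79 on wildtype 1, 2 and 3, a difference of 0.87 (limma adjusted p = 0.041). With the replicate number as a block the adjusted p was 0.215, and the call was lost. An unadjusted p under 0.05 was found for 3 of the 66, beside 2.97% of all probe sets. The groups did not overlap for 6 of the 66, all higher in diabetic liver, beside 4.57% of all probe sets that were higher without overlap and 7.87% in either direction.

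In the same list of 9 measured donor genes, Galk1, the galactokinase, differed by 0.37, Papss1, the other PAPS synthase, by -0.13 and Slc35a2, the UDP-galactose transporter, by 0.08 (0.00 at its second probe set). With 4 higher and 5 lower means, the list held 1 higher and 0 lower calls, and had a median of -0.015. A call was made for 1 of the 66 genes in all lists, beside 0.321% of all probe sets.

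Chain extension and branching had 14 measured genes, 7 higher and 7 lower, 0 called and a median of 0.004. B4galt1, the galactosyltransferase that makes most lactosamine in many tissues, measured 8.85, 8.87 and 9.51 on diabetic 1, 2 and 3, against 9.67, 9.35 and 9.26 on wildtype 1, 2 and 3. Its difference was -0.35, and diabetic 3 lay among the wildtype arrays. B4galt5, which acts mainly in lactosylceramide synthesis, differed by -0.46, with wildtype 1 at 9.16 and wildtype 3 at 7.97. B4gat1, an enzyme of dystroglycan glycosylation, differed by 0.15, and Gcnt3, a branching enzyme of mucin-type glycans, by 0.13 (0.08 at its second probe set).

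The other Golgi sulfotransferases had 8 measured genes, 5 higher and 3 lower, 0 called and a median of 0.051. Chst3, a chondroitin sulfotransferase that can also sulfate keratan sulfate, differed by -0.18, Chst10, which makes the HNK-1 epitope, by 0.14, and the N-acetylgalactosamine sulfotransferases Chst9 and Chst8 by 0.08 and -0.12. Chst9 was the gene on this list whose groups did not overlap, at a level of 2.72 ± 0.01 on the diabetic and 2.63 ± 0.03 on the wildtype arrays (SD, n = 3 each).

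The core proteins that carry keratan sulfate were covered by 3 of 9 genes, all below the median level, with 2 higher, 1 lower, 0 called and a median of 0.043. Fmod differed by -0.14, Acan by 0.05 and Lum by 0.04, with -0.111 for Lum without wildtype 2. Lysosomal breakdown was covered by 4 of 7 genes, with 3 higher, 1 lower, 0 called and a median of 0.193. The sialidase Neu1 measured 8.07, 8.09 and 8.05 on diabetic 1, 2 and 3, against 7.88, 7.93 and 7.75 on wildtype 1, 2 and 3, without overlap, and differed by 0.21 (limma adjusted p = 0.928). The galactosidase Glb1 differed by 0.35, the sulfatase Galns by 0.18 and the hexosaminidase subunit Hexa by 0.00, all with overlap between the groups. Without wildtype 3, at 6.08 the lowest array for Glb1, its difference was 0.168.

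N-glycan branch points, on which lactosamine arms are built, had 8 measured genes, 3 higher and 5 lower, 0 called and a median of -0.064. The core fucosyltransferase Fut8 and the branching enzyme Mgat4b differed by 0.21 and 0.22, both without overlap between the groups, and Mgat3 and Mgat1 by -0.22 each. Caps and fucosylation had 12 measured genes, 5 higher and 7 lower, 0 called and a median of -0.017. Fut9, which fucosylates lactosamine, differed by 0.16 at a low level and without overlap, B4galnt2 and the sialyltransferase St3gal3 by -0.24 each, and Fut2 by 0.10 at its brighter and -0.15 at its dimmer probe set. Proteins that bind these chains had 8 measured genes, 6 higher and 2 lower, 0 called and a median of 0.117. The galectins Lgals9, Lgals1 and Lgals2 differed by 0.55, 0.48 and -0.11, and the groups overlapped for each. Lgals9 on diabetic 3, at 10.11, lay below wildtype 1 and 3, at 10.30 and 10.20. Lgals1 on wildtype 3, at 7.75, lay above all diabetic arrays.

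**Figure D4:**
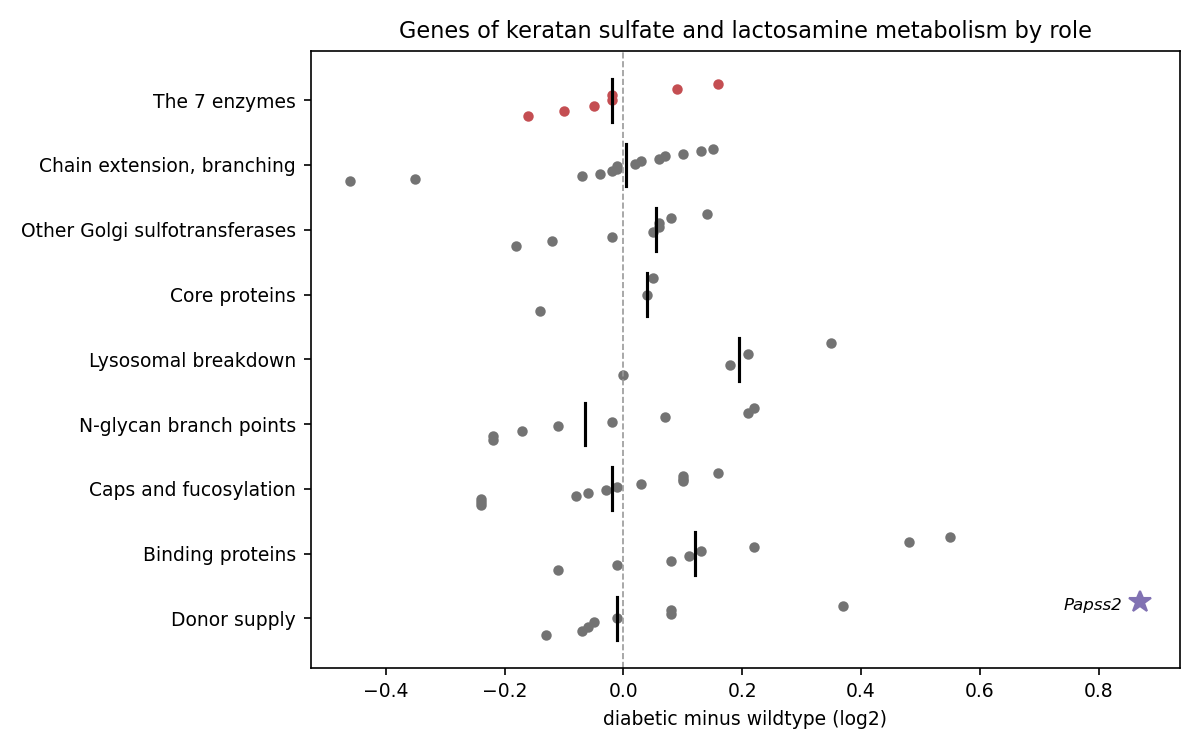
Diabetic minus wildtype difference on the log2 scale (horizontal axis) for every measured gene of the 7 enzymes (red) and of the 8 pathway lists (grey), 1 point per gene, with the median of each list as a black bar. The star is Papss2, the 1 gene past the limma threshold, at 0.87. The 7 enzymes lie between -0.16 and 0.16.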

How the data were processed

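The deposited table holds 1 value per probe set and array, made by the authors with RMA per the submitters' processing notes (version and settings: not given in the sources used here). RMA corrects background, makes the arrays comparable and summarises probes. The deposited values, 2.03 to 13.45, were read as log2 from their range. The number of arrays limits the precision. This step hides any change that the majority of probe sets share.

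Of 1246 probe sets, 963 were named through their RefSeq accession with a RefSeq gene table of GRCm38.p6, giving 909 genes. A gene with several probe sets was represented by the brightest. Gene coordinates are those of that table, not of the array. Upstream sequences came from RefSeq and matched 7 of 7 genes.

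The groups were compared with limma 3.58.1 (lmFit, eBayes; R 4.3.3). P-values were adjusted by Benjamini-Hochberg over the whole table, and an adjusted p under 0.05 counted as a call. The script was tested on simulated data. The 7 genes, the lists and the tests were chosen with earlier results of these data known. Named genes were the 7, up to 4 per pathway list by unadjusted p, and the 3 genes most like each of the 2 brightest. The macrophage markers Csf1r, Cd74 and Clec4f and the hepatocyte markers Igfbp1, Angptl4, Asgr1 and Asgr2 were named after their values were seen. A further gene that this rule names is not reported here.

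Groups and replicate numbers came from the titles. Same-numbered arrays' deviations from the group means correlated at 0.397, 0.138 and 0.162, all over the limit of 0.1 for treating the numbers as pairs, though the labels do not say what a number stands for. The main fit did not use the numbers. SEs, intervals, p-values and shares of all probe sets are therefore unpaired unless the block is named. Alternatives were quantile normalization, a common median, dropping the dimmest 25% of probe sets, trended and robust eBayes, an unmoderated linear model, array weights, the replicate block, a threshold of 0.10, the mean over probe sets, and each array left out.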

Additional observations from a re-analysis of the deposited data

How the results depend on the processing

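For the 7 enzymes 0 were called under every alternative run, with adjusted p of 0.761 or more, and the replicate block changed no call among them. The 4 probe sets called among all, and the 1 called pathway gene, Papss2, became 0 and 0 under the replicate block, under trended and robust eBayes and in the unmoderated linear model, while leaving out 1 array gave 0 to 1 probe sets and 0 pathway genes; fewer samples stand behind the last. Leaving out 1 array turned the sign of 6 of the 7 uncalled differences, which ran from -0.025 to 0.293 for B3gnt2, -0.055 to 0.016 for B3gnt7, -0.277 to 0.008 for Chst1, -0.222 to 0.004 for Chst2, -0.127 to 0.019 for Chst4 and -0.066 to 0.022 for Chst5. B3gnt7 was also 0.001 with array weights. Among 31 named pathway genes the sign turned for Lum (-0.111 to 0.201) and Hexa (-0.104 to 0.082) with 1 array left out, for Hexa at a common median (0.005) and for Fut2 as the mean over probe sets (-0.024). Without the dimmest 25% of probe sets, B4galt4 was not in the fit. The cause of these turns was not tested. No detection call was used, so how far background limits the 6 enzymes below the median level was not tested.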
